A study of Mus musculus with 2 samples.

Results

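Neurotrophins are secreted growth factors that keep neurons alive and shape their axons, dendrites and synapses. They bind Trk receptor tyrosine kinases, which signal through MAP kinase, PI3 kinase and phospholipase C, and they also bind Ngfr, a receptor without a kinase. Their uncleaved precursors bind Ngfr together with the sorting receptor sortilin. Described here are 6 genes of this system in the central nervous system of mouse embryos, out of 43346 genes in the tables: the ligands Bdnf and Ntf3, the receptors Ntrk2, Ntrk3 and Ngfr, and Sort1, which encodes sortilin. They were chosen by symbol, and all 6 were found in the gene table of each library.

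Polyadenylated RNA came from embryonic day 18 central nervous tissue of the mouse strain C57BL/6J, pooled over both sexes of a litter, and the labels name no mutation or treatment. There was 1 group with 2 libraries, called replicate 1 and replicate 2 as in the labels, so the data hold levels and the difference between the libraries, and no comparison between conditions. The labels give separate biosamples and do not say how many embryos were pooled or which parts of the central nervous system were taken. Genes received 93979836 fragments in replicate 1 and 137012773 in replicate 2. All 6 neuron markers and all 8 markers of astrocytes and radial glia reached a level of 1 TPM, the share of all transcripts after correction for length and library size, in both libraries. Genes listed as markers of tissue outside the central nervous system had reads too, and their sums differed between the libraries. The summed level of 8 skeletal muscle genes was 14.8 TPM in replicate 1 and 630 TPM in replicate 2. That of 10 sensory ganglion genes was 22.4 and 71.0 TPM. Only 3 of the 8 and 4 of the 10 reached 1 TPM in both libraries. Whether each listed gene is restricted to that tissue was not tested. In bulk tissue, fewer cells of a type and less RNA per cell cannot be told apart.

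All 6 genes were detected, at 1 TPM or more in both libraries, as were 34.2% of all genes and 62.9% of protein-coding genes. On this scale levels can be set side by side between genes. The receptors with kinase domains and sortilin lay well above the ligands. In descending order of mean TPM the genes were Sort1, Ntrk3, Ntrk2, Ngfr, Ntf3 and Bdnf.

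**Figure D1:**
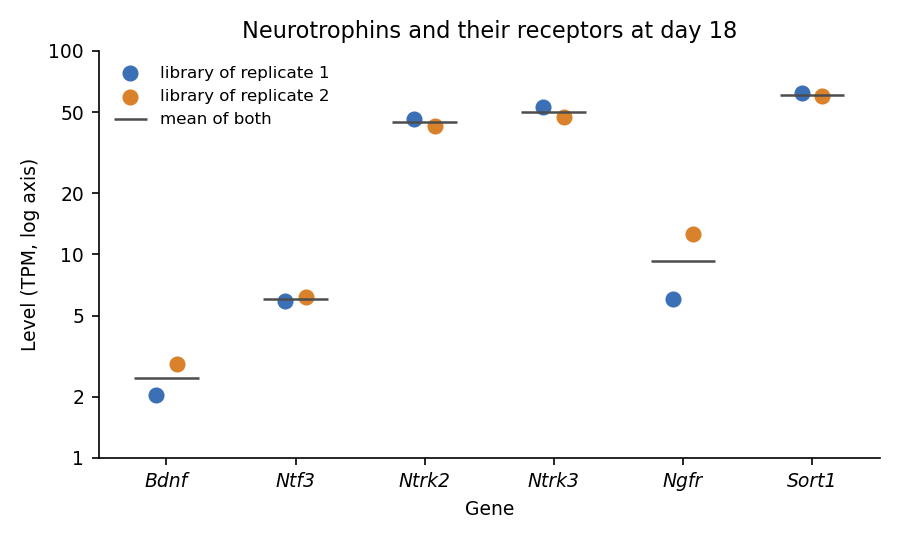
Level of each gene in TPM (log axis) in the libraries of replicate 1 (blue) and replicate 2 (orange), with the mean of both as a line. Sort1, Ntrk3 and Ntrk2 sit between 42.5 and 61.8 TPM, the ligands between 2.03 and 6.19 TPM, and Ngfr is the gene whose points lie farthest apart, at 6.05 and 12.5 TPM.

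Among the ligands, Bdnf encodes brain-derived neurotrophic factor, the main ligand of the TrkB receptor, and lies on chromosome 2 (GRCm38, 109674700 to 109727007, plus strand). Its level was 2.03 TPM in replicate 1 and 2.89 TPM in replicate 2, a mean of 2.46 ± 0.608 TPM (SD, n = 2) from 472 and 1003 fragments. It was the lowest of the 6 genes, and 7.63% of the 13506 detected protein-coding genes had a lower mean. Ntf3 encodes neurotrophin-3, the main ligand of the TrkC receptor, and lies on chromosome 6 (126101412 to 126166910, minus strand). It was at 5.90 and 6.19 TPM, a mean of 6.05 ± 0.205 TPM (SD, n = 2). The Ntf3 mean was 2.46 times that of Bdnf, and the lower Ntf3 library was above the higher Bdnf library. That order needs the length correction. Ntf3 drew fewer fragments than Bdnf in both libraries, 423 and 669, and its transcripts are shorter in the tables, at 1316 and 1427 nt against 3707 to 4266 nt for Bdnf.

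Among the receptors, Ntrk3 encodes TrkC and lies on chromosome 7 (78175959 to 78738012, minus strand). It was at 52.9 and 47.3 TPM, a mean of 50.1 ± 4.0 TPM (SD, n = 2). Ntrk2 encodes TrkB and lies on chromosome 13 (58806569 to 59133970, plus strand). It was at 46.4 and 42.5 TPM, a mean of 44.5 ± 2.78 TPM (SD, n = 2). The libraries of these neighbours in the order did not overlap, but the lower Ntrk3 value of 47.3 TPM and the higher Ntrk2 value of 46.4 TPM lay closer together than either gene's own libraries. Each Trk gene exceeded its main ligand, Ntrk2 being 18.1 times as high as Bdnf and Ntrk3 8.29 times as high as Ntf3 in mean TPM.

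Ngfr, on chromosome 11 (95568818 to 95587735, minus strand), encodes the receptor that binds all neurotrophins and their precursors. It was at 6.05 TPM in replicate 1 and 12.5 TPM in replicate 2, a mean of 9.30 ± 4.59 TPM (SD, n = 2). Its lower library fell within the range of Ntf3, so these neighbours in the order did not differ beyond their spread. Sort1, on chromosome 3 (108284082 to 108361511, plus strand), encodes a receptor that sorts proteins between the Golgi, endosomes and the cell surface and carries neurotrophin precursors. It was at 61.8 and 60.01 TPM, a mean of 60.9 ± 1.27 TPM (SD, n = 2). In TPM, Sort1 was the highest of the 6 and lay above 79.9% of the detected protein-coding genes. That rank depends on transcript lengths. A retained-intron transcript of 925 nt held 11.4 and 10.6 TPM of it, and a coding transcript listed at 1629 nt held 8.40 and 8.67 TPM. The remaining transcript, at 42.03 and 40.7 TPM, was below both whole Trk genes in each library. Without length correction Ntrk2 drew more, at a mean of 226 CPM (counts scaled to library size) against 189 CPM for Sort1. Antisense genes are annotated over parts of Bdnf, Ntrk2, Ntrk3 and Sort1, and whether the counting used the strand is not given in the sources used here.

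Both Trk genes make a full-length receptor and a form that keeps the extracellular and membrane-spanning parts and ends before the kinase. Such truncated forms bind ligand and cannot phosphorylate targets. The forms part after the last exon they share, which is exon 12 in the full-length models of both genes. The sequences there show what each form reads on into. Lower case marks the last 30 bases of the shared exon and capitals what follows, which is the whole coding end with the stop codon for the truncated forms and the first 60 bases of the next exon for the full-length forms (coding strand, GENCODE M21 transcripts on GRCm38).
Ntrk2 truncated: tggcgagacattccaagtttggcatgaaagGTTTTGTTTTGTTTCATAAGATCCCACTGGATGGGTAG
Ntrk2 full length: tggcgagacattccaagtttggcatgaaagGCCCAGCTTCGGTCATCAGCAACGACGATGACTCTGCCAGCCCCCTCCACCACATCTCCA
Ntrk3 truncated: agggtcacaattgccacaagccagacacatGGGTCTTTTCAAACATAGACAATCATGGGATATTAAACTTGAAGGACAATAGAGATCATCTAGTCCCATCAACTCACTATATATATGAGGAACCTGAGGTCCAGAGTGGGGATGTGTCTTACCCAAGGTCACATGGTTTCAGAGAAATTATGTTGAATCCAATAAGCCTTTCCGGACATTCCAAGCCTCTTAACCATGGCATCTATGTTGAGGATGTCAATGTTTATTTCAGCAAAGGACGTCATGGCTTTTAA
Ntrk3 full length: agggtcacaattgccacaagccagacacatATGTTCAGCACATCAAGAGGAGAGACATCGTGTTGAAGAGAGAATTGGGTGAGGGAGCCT

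The truncated ends differ in length between the genes. Truncated Ntrk2 adds 38 coding bases up to and including its stop codon, read from an exon at chromosome 13, 58932023 to 58937027, whereas full-length Ntrk2 reads 1073 coding bases past the fork. Truncated Ntrk3 adds 254 coding bases over a pair of exons, the first of them at chromosome 7, 78304292 to 78304426, and full-length Ntrk3 reads 893 past the fork.

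The genes had opposite main forms. In the transcript tables, where a program divides the fragments of a gene among its annotated transcripts, the truncated Ntrk2 transcript was at 13.6 TPM in replicate 1 and 14.4 TPM in replicate 2, and the full-length one at 32.8 and 28.2 TPM. The truncated form thus made up 29.3% and 33.8% of Ntrk2 TPM, a mean of 31.5% ± 3.16 (SD, n = 2). In Ntrk3 the truncated transcript was at 39.4 and 34.9 TPM, and the 3 full-length coding transcripts together at 12.6 and 11.4 TPM. The truncated share of the coding Ntrk3 transcripts was 75.8% and 75.4%, a mean of 75.6% ± 0.287 (SD, n = 2). In both libraries full length was the larger part of Ntrk2, and the truncated form was the larger part of Ntrk3. Full-length Ntrk2, at a mean of 30.5 ± 3.31 TPM, was therefore above full-length Ntrk3, at 12.0 ± 0.841 TPM (SD, n = 2 each), although Ntrk3 as a whole was the higher gene in TPM. That order of the whole genes rests on the length correction. Without it Ntrk2 drew more, at a mean of 226 CPM (counts scaled to library size) against 76.4 CPM for Ntrk3. In the tables the main Ntrk3 transcripts are 3300 nt (full length) and 2337 nt (truncated) long, against 19703 and 3977 nt in GENCODE M21.

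Reads spliced across the fork give a second view of the same choice that does not depend on dividing fragments among transcripts. They come from a junction table on mm9 whose replicate columns, called first and second here, are not tied to a library. From the last shared Ntrk2 exon (mm9 chromosome 13, 58979524 to 58979623), 647 reads went to the truncated exon and 1069 to the first exon of the full-length side. The truncated share was 37.7% (exact binomial 95% interval 35.4% to 40.0%). It was 33.1% (29.8% to 36.6%) in the first replicate column and 41.4% (38.2% to 44.6%) in the second, so that these counting intervals did not overlap. From the last shared Ntrk3 exon (mm9 chromosome 7, 85500913 to 85501101), 543 reads went to the truncated exon and 181 to the full-length side. The truncated share was 75% (71.7% to 78.1%), with 77.5% and 73.2% in the replicate columns and overlapping intervals. Intervals on reads cover counting error only, since reads without molecular identifiers are not independent molecules.

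**Figure D2:**
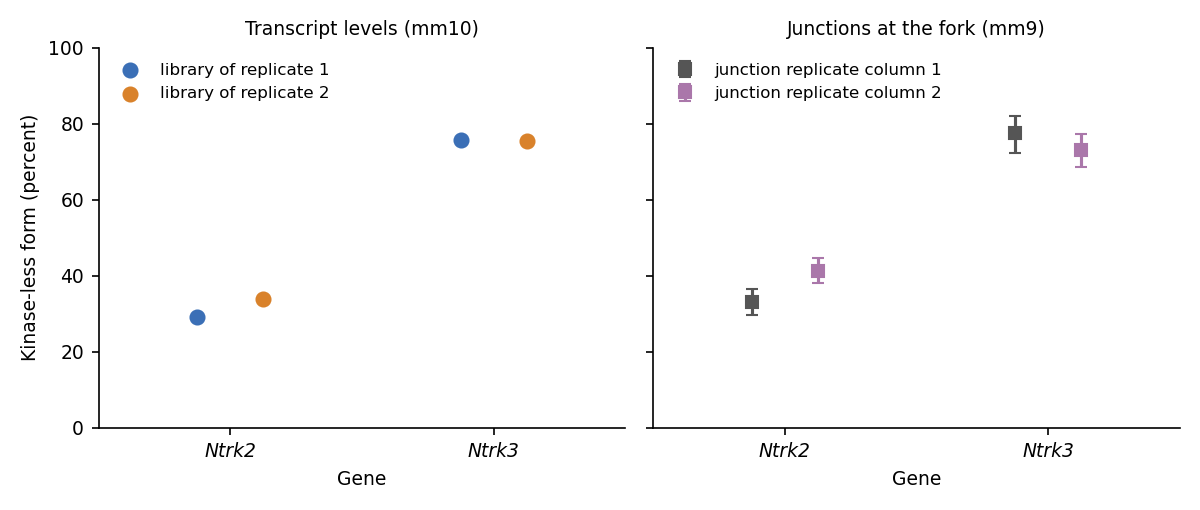
Percent of the kinase-less form of Ntrk2 and Ntrk3 from transcript TPM in each library (left) and from junction reads at the fork in each replicate column with exact binomial 95% intervals (right). Ntrk2 points lie between 29.3% and 41.4% and Ntrk3 points between 73.2% and 77.5%.

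Other routes out of the fork were rare. A further 17 reads joined the last shared Ntrk3 exon straight to the last exon of the truncated form and skipped the 135 nt exon between them, which was included at 96.9% (95.1% to 98.2%). From the Ntrk2 fork, 13 reads went to another acceptor just downstream. Along the genes, the 11 junctions between shared Ntrk2 exons held 751 to 1721 reads, with a median of 1243, and the 5 junctions inside the full-length side 602 to 900. In Ntrk3 the 11 shared junctions held 548 to 2451 reads, with a median of 988, and the 4 junctions inside the full-length side 95 to 221. Coverage was uneven along the shared part of both genes. The junction that enters the last shared Ntrk3 exon held 1462 reads, more than all junctions that leave it together, so the shares compare the exits with each other and not with the number of transcripts that reach the fork.

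**Figure D3:**
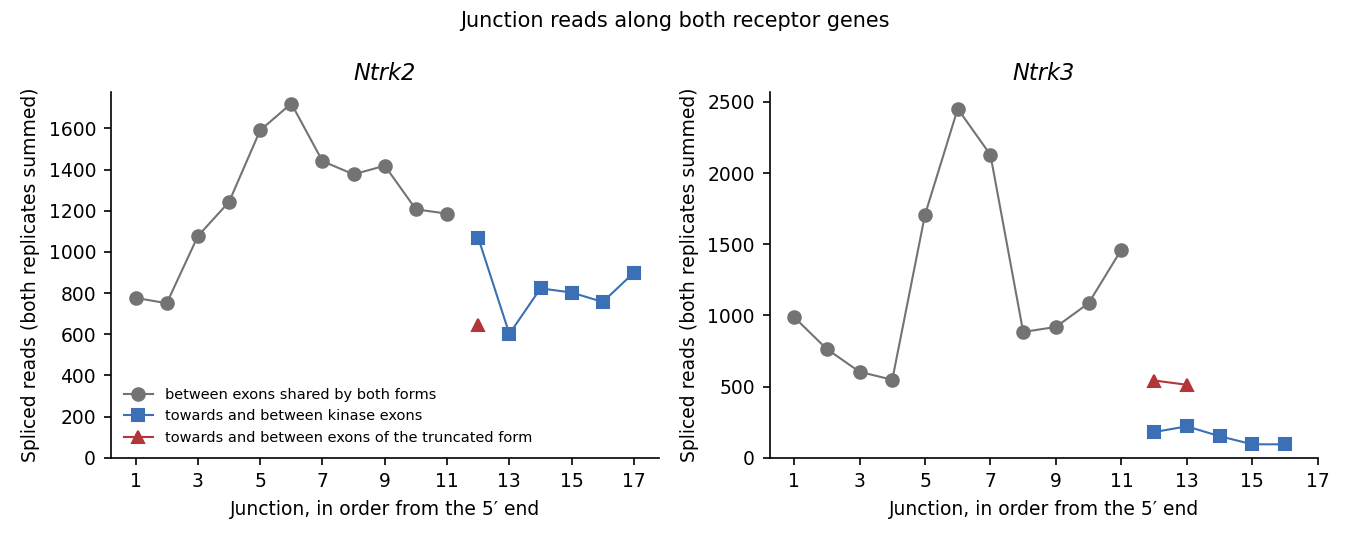
Spliced reads, summed over both replicate columns, at each junction in order from the 5′ end of Ntrk2 (left) and Ntrk3 (right). Past the fork the full-length side of Ntrk2 holds 602 to 1069 reads against 647 for the truncated exon, while in Ntrk3 the full-length side holds 95 to 221 against 513 and 543 for the truncated side.

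Within the kinase part of TrkC, some transcripts carry a short insert that is known to lower signalling of the receptor. An exon of 42 nt, which adds 14 codons and no stop codon in frame, lies at chromosome 7, 78204103 to 78204144 (GRCm38). It is shown in capitals because it is the alternative segment, between 15 bases of each neighbour, and is followed by the 24 nt exon of the extracellular part for contrast.
Ntrk3 42 nt exon: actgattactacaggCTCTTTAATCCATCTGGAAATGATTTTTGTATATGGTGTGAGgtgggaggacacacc
Ntrk3 24 nt exon: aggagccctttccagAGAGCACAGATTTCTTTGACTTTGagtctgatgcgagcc
The 42 nt exon had 22 and 29 reads on its upstream and downstream junctions against 95 reads that skipped it. Its inclusion was 21.5% (14.5% to 29.9%), taking the mean of its junctions rounded to whole reads. The insert was thus a minor choice, and the exon itself is absent from the Ensembl release 65 models that the mm9 tables use. The transcript that carries it was at 0.71 and 0.63 TPM, which is 5.65% and 5.54% of full-length Ntrk3 TPM and below the junction share. By contrast the 24 nt exon was included at 97.8% (96.7% to 98.7%), with 20 reads that skipped it.

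The second exon of Ntrk2 received reads from more than 1 upstream splice donor. Donors alone do not show whether these belong to separate first exons. Of 1223 reads into the second exon, 777 came from the donor at mm9 position 58909374, which is 63.5% (60.8% to 66.2%). A further 407 came from the donor at 58908213, 33.3% (30.6% to 36%), and 27 from 58908549. No other donor gave more than 4 reads.

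Of the 4 alternative exons with at least 10 reads on each inclusion and skipping junction in these 6 genes, that of Sort1 had the most even use. An exon of 99 nt between the exons near the 3′ end of the coding part (GRCm38 chromosome 3, 108355472 to 108355570) adds 33 codons with no stop codon in frame.
Sort1 99 nt exon: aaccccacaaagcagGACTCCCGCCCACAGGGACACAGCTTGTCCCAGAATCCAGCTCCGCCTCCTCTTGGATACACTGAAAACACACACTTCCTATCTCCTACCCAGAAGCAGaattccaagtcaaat
Capitals mark the exon, and lower case 15 bases of each neighbour. Its junctions held 344 and 411 reads, and 272 reads skipped it. Inclusion was 58.2% (54.3% to 62.0%), with 56.8% in the first and 59.1% in the second replicate column and overlapping intervals.

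The transcript tables gave another picture of this exon. The coding transcript that carries it was at 8.40 and 8.67 TPM, only 13.6% and 14.4% of Sort1 TPM, against 42.03 and 40.7 TPM for the one that lacks it. In those tables the transcript with the exon is 1629 nt long and the one without it 6796 nt, while in GENCODE M21 the former is 6836 nt long. A retained-intron transcript of 925 nt took a further 18.4% and 17.7%. The junction share and the transcript share of the 99 nt exon thus differed, and the part of the transcript lengths in this was not tested. At the start of exon 8 of Sort1 a pair of acceptors lie 3 bases apart, and the upstream one took 250 of 424 reads, 59.0% (54.1% to 63.7%).

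Bdnf is transcribed from several promoters, each with its own 5′ exon that is spliced to a common exon with the coding sequence of the precursor. In the Ensembl release 65 models these 5′ exons form 6 groups, numbered here in order from the 5′ end. These numbers give the order only and need not match exon numbers used elsewhere. A first exon annotated between groups 4 and 5, at GRCm38 chromosome 2, 109693027 to 109693107, is in none of the groups. Only 124 reads were spliced into the coding exon at mm9 chromosome 2, 109563539, so the shares are wide. Group 5 (109533720 to 109534066) gave 42 reads, 33.9% (25.6% to 42.9%). Group 1 (109514857 to 109515496) gave 34 reads, 27.4% (19.8% to 36.2%). Group 2, with 3 donors between 109516054 and 109516552, gave 32 reads, 25.8% (18.4% to 34.4%). These leading groups did not differ beyond their counting intervals. Group 4 (109532593 to 109532931) gave 13 reads, 10.5% (5.70% to 17.3%). Groups 3 and 6 gave 0 of 124, which allows a share of up to 2.42% by a limit of 3 reads and up to 2.93% by the exact interval. The other 3 reads came from donors outside the 6 groups.

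**Figure D4:**
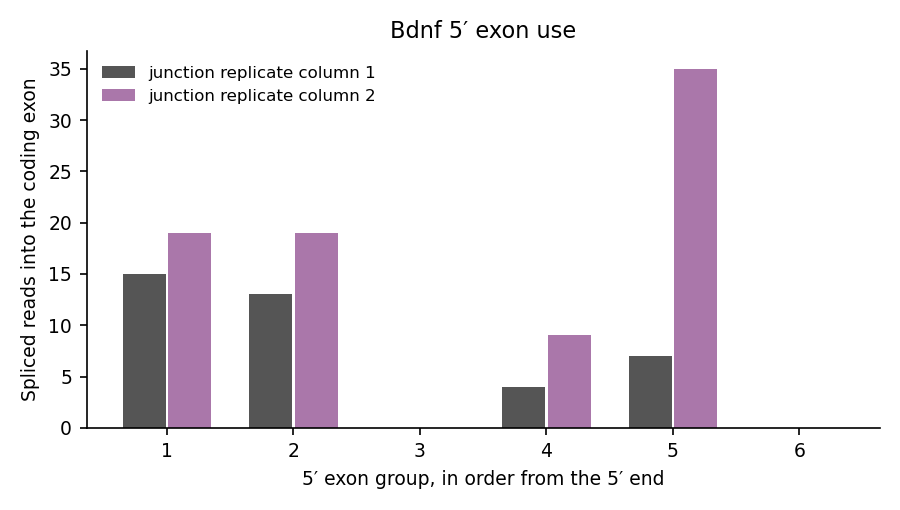
Spliced reads into the Bdnf coding exon from each group of 5′ exons, for the first (grey) and second (purple) replicate column. Group 5 holds 7 and 35 reads, group 1 holds 15 and 19, group 2 holds 13 and 19, group 4 holds 4 and 9, and groups 3 and 6 hold none.

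The replicate columns differed most at group 5, with 7 of 39 reads, 17.9% (7.54% to 33.5%), in the first and 35 of 85, 41.2% (30.6% to 52.4%), in the second, and these intervals overlapped. The mm10 transcript tables showed a like spread. The transcript of group 5 held 24.1% of Bdnf TPM in replicate 1 and 39.0% in replicate 2, that of group 1 31.0% and 16.2%, and that of group 4 16.3% and 19.0%. Of the 3 transcripts of group 2, the one with the longest 5′ exon was the highest, at 0.46 and 0.49 TPM, and the next was at 0.12 and 0.19 TPM. Of the 11 Bdnf transcripts, 4 were listed at 0 in both libraries.

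Among the Bdnf transcripts above 0, that of group 1 is the one with another start of the reading frame. It has 771 annotated coding bases against 747 for the others. Its first 24 coding bases are in capitals below, of which 3 lie in the 5′ exon itself, followed in lower case by the start that all forms share.
Bdnf group 1 start: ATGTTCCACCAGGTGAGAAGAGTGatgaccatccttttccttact

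Promoters of groups 1 and 4 are shown because group 4 is known for its response to neuronal activity through the factor CREB. Group 1 drew more junction reads here, 34 against 13 for group 4. By transcript TPM, group 1 was the higher in replicate 1, at 0.63 against 0.33 TPM. In replicate 2 group 4 was the higher, at 0.55 against 0.47 TPM. Each run is the 250 bases before the transcription start in RefSeq (GRCm38.p6, plus strand), at chr2:109674450-109674699 for group 1 and chr2:109692186-109692435 for group 4, with capitals for TGACG or its reverse complement CGTCA, the core that CREB recognises.
Bdnf group 1 promoter: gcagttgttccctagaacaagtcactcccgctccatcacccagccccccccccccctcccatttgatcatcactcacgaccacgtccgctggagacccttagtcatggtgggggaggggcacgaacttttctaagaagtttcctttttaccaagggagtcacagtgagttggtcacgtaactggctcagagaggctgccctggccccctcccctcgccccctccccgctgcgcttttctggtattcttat
Bdnf group 4 promoter: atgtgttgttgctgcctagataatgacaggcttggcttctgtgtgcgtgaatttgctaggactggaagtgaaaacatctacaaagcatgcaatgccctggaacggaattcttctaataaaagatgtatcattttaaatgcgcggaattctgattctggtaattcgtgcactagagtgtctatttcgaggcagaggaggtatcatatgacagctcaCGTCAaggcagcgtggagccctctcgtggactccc
Only exact matches are in capitals, and whether CREB acts at either promoter was not tested. The motif begins 35 bases before the group 4 start. It was in 1 of the 7 Bdnf promoters in the RefSeq table, and in 17.8% of all 32851 promoters of this length. No RefSeq entry matched the starts of groups 2 and 5.

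In Ntf3 most spliced reads entered the coding exon from 1 upstream exon. Of 188 reads into the coding exon, which ends at mm9 chromosome 6, 126052541, 156 came from the exon at 126114748 to 126114858, 83.0% (76.8% to 88.1%), and 18 from the one at 126116558, 9.57% (5.77% to 14.7%). The other 5 donors gave 4 reads or fewer each. Only 14 reads were spliced into the exon at 126114748 to 126114858 from further upstream, against the 156 that left it. In the transcript tables the form annotated with that exon as the middle one of its 3 was at 4.63 and 4.41 TPM and the other form at 1.27 and 1.78 TPM. The form annotated with 3 exons was given the higher level in both libraries, with 78.5% and 71.2% of Ntf3 TPM. Its annotated reading frame has 813 coding bases against 774. With 14 reads into its middle exon and 156 out of it, that share does not show that most of these molecules held all 3 exons. Whether transcripts start at the middle exon was not tested.

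Between the libraries, Ngfr was the member that differed most. Counts were scaled by TMM factors for this, and a gene was called different at a ratio of 2-fold or more in either direction, with no test since the group has 2 libraries. Of 18677 genes with enough fragments, 3.57% passed, 2.63% higher and 0.942% lower in replicate 2. Of the 6 members 1 passed, Ngfr, which was 2.07 times as high in replicate 2 (log2 ratio 1.05; 1.94 to 2.22 times from counting error alone). This was just inside the threshold, and the next member, Bdnf, was outside it at 1.40 times (1.26 to 1.57). The other 4 had log2 ratios of 0.06 for Ntf3, -0.04 for Sort1, -0.14 for Ntrk2 and -0.16 for Ntrk3, beside a median of -0.00211 over all genes.

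The Ngfr difference ran along the whole gene. Its 5 junctions held 372 reads in the first replicate column and 1152 in the second, and each of them was 1.86 to 2.46 times as high in the second after scaling to all junction reads. The mm9 gene values were 0.780 and 1.69 RPKM. These come from the same series and are no further replicates.

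Some genes listed as markers of other tissue moved with Ngfr, which sensory neurons, Schwann cells and connective tissue are known to express as well. Of 9 sensory ganglion genes with enough fragments, 7 were at least 2-fold higher in replicate 2 and none lower, with Prph, a filament protein of peripheral neurons, at 5.56 and 42.5 TPM. The summed level of 6 Schwann cell and neural crest genes was 15.9 and 27.5 TPM, with 2 of 6 past 2-fold, 2 with a log2 ratio below 0 and a median of 0.26. The 6 genes of meninges and fibroblasts summed to 145 and 331 TPM, with a median log2 ratio of 0.50. The collagen genes Col1a1, at 24.8 and 116 TPM, and Col1a2, at 32.01 and 129 TPM, passed 2-fold and carried the sum, while Dcn, at 52.2 and 40.1 TPM, and Foxc1, at 3.90 and 3.28 TPM, had ratios below 0. All 8 skeletal muscle genes were past 2-fold, and no gene of these 4 lists was listed at 0 in either library. All 6 cortical projection neuron genes and all 6 genes of GABA interneurons had log2 ratios below 0, with medians of -0.48 and -0.45. None of either list passed 2-fold, and 49.6% of all genes with enough fragments had ratios above 0. The part of these tissues in the Ngfr result was not tested.

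**Figure D5:**
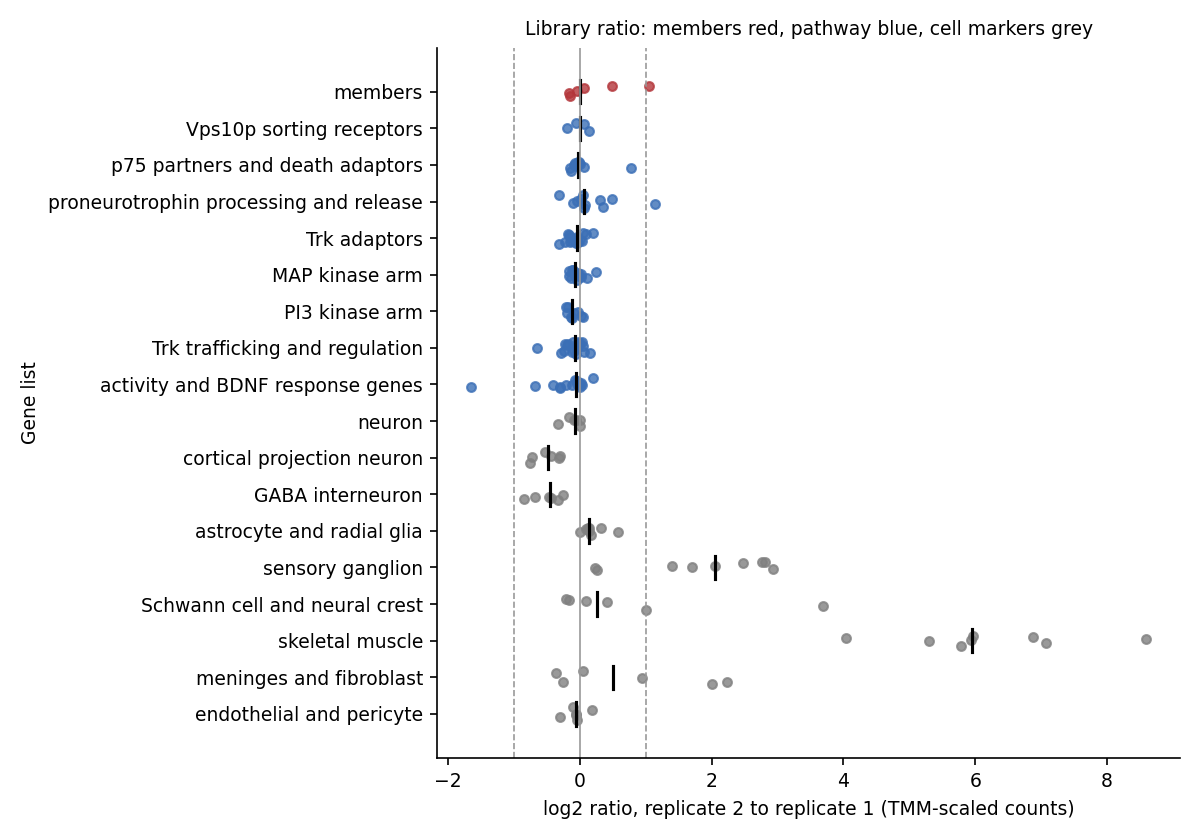
Log2 ratio of replicate 2 to replicate 1 for each gene, by list (8 of the 9 pathway lists are plotted), with the list's median as a black bar and dashed lines at 2-fold. The members lie between -0.16 and 1.05, most pathway genes lie inside 2-fold, and the medians of the sensory ganglion and skeletal muscle lists lie at 2.06 and 5.95.

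Most listed genes of the rest of the pathway were detected. Of 104 genes in 9 pathway lists, 101 were detected, beside 62.9% of all protein-coding genes. The lists were chosen with earlier results of these data known. Of 102 with enough fragments, 2 were at least 2-fold higher and 1 at least 2-fold lower in replicate 2. That is 2.94% beside 3.57% of all genes. Their median log2 ratio was -0.04. Ntf5, the gene of neurotrophin-4/5, was at 0.05 and 0.10 TPM and was not detected.

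The 4 relatives of sortilin in the sorting receptor list were all detected and lay close together, from Sorcs3 at 9.93 ± 0.240 TPM to Sorcs1 at 12.1 ± 0.332 TPM (SD, n = 2 each), and none passed 2-fold. Sort1 was above each of them. Of 10 partners and death adaptors of Ngfr, all were detected and none passed 2-fold. Maged1, which binds Ngfr, was the highest at 631 ± 0.884 TPM and Mag, a myelin protein that signals through an Ngfr complex, the lowest at 2.31 ± 0.841 TPM (SD, n = 2 each). Of 12 genes that process or release neurotrophin precursors, 10 were detected. Cpe, a carboxypeptidase that sorts the Bdnf precursor, led at 311 ± 5.78 TPM (SD, n = 2), and Mmp3, a protease, was lowest, at 0 and 0.01 TPM. Mmp9, a protease that can cleave the precursor, was at 6.63 and 14.6 TPM and 2.22 times as high in replicate 2.

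Downstream of the receptors every listed gene was detected. None of the 19 Trk adaptors passed 2-fold, and they ran from Shc4 at 2.21 ± 0.0778 TPM to Kidins220, a scaffold that Trk receptors phosphorylate, at 159 ± 2.92 TPM (SD, n = 2 each). None of the 13 genes of the MAP kinase arm passed, from Rps6ka1 at 11.5 ± 0.417 TPM to Mapk3 at 194 ± 14.2 TPM (SD, n = 2 each). None of the 9 genes of the PI3 kinase arm passed, from Pik3cb at 7.96 ± 0.120 TPM to Akt1 at 209 ± 16.3 TPM (SD, n = 2 each). None of the 18 genes of receptor trafficking and regulation passed, from Ehd4 at 4.22 ± 0.283 TPM to Ptprs, a receptor phosphatase, at 349 ± 31.96 TPM (SD, n = 2 each).

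Of 16 genes known to respond to neuronal activity or Bdnf, all were detected and 1 passed 2-fold. The immediate early gene Fos was at 8.09 TPM in replicate 1 and 2.75 TPM in replicate 2, a log2 ratio of -1.64. Bdnf itself was 1.40 times as high in replicate 2 and did not pass 2-fold. Mef2c, a transcription factor of neurons, was the highest of the list at 63.7 ± 13.6 TPM, and Arc, an immediate early gene of synapses, the lowest at 3.12 ± 0.0354 TPM (SD, n = 2 each).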

How the data were processed

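Stranded paired reads of polyadenylated RNA were made from 2 libraries of 1 group, per the labels. For genes and for transcripts the authors deposited expected counts, TPM, FPKM and each transcript's percent of its gene, on mm10 with the GENCODE M4 annotation named in their read-me texts. On mm9 the authors deposited RPKM per gene and counts of spliced reads per junction with an irreproducibility score, for Ensembl release 65 per the file headers and attributes. Neither aligner nor quantifier is named in the sources used here. Entries that name no gene took 3.62% and 4.01% of the fragments and were left out of library sizes.

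Expected counts were rounded and scaled with TMM in edgeR 4.0.16 (R 4.3.3, filterByExpr, prior count of 1). DESeq2 1.42.0 size factors served as an alternative. Both libraries enter every value and no p-value is given. Ratios and intervals were tested on simulated data. Junction shares carry exact Clopper-Pearson 95% intervals (SciPy 1.17.1), and inclusion is the mean of both inclusion junctions over that mean plus skipping reads, for exons with at least 10 reads on each junction. A count of 0 allows up to 3 fragments, which is 0.0319 and 0.0219 CPM. Exons were matched between builds by transcript and order, and no coordinate was moved.

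The members and gene lists were chosen with earlier results of these data known. All members were named, with each pathway list's highest and lowest gene and any past 2-fold. The results of some genes are left out here, while counts and medians over lists include them. Transcripts were named from 5% of their gene's TPM, and the receptors' kinase-less forms at any level. Promoter sequences are RefSeq's and transcripts GENCODE M21's. Alternatives covered units, scalings, prior counts, filters, replicate columns and leaving out each library.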

Additional observations from a re-analysis of the deposited data

How the results depend on the processing

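Detection of all 6 members held at limits of 0.5, 1 and 2 TPM, at 1 FPKM, and with each library left out. The single member past 2-fold held under every scaling and prior count run. Detection was not run on the mm9 RPKM, in which Bdnf was at 0.283 and 0.409 and Ntf3 at 0.731 and 0.802. The order of members was the same in TPM, FPKM and mm9 RPKM. In CPM, with no length correction, Ntrk2 led and Bdnf lay above Ntf3. The 667 genes past 2-fold became 3824 with no filter on low counts and 444 at a mean TPM of 1 or more. The Ntrk2 truncated share was 27.3% from expected counts and ranged from 29.3% to 33.8% when a library was left out. The Ntrk3 share was 68.3% from expected counts, 74.6% over all transcripts, and ranged from 75.4% to 75.8% with a library left out. At the fork, the Ntrk2 share was 33.1% and 41.4% in the replicate columns. An alternative chosen after seeing the data, the median of the junctions inside each side, gave 44.6% for Ntrk2 and 81.0% for Ntrk3. The causes were not tested. The Sort1 exon ran from 55.8% to 60.2% and the Ntrk3 42 nt exon from 18.5% to 23.4% over settings also chosen after seeing the data. Bdnf 5′ exon shares are limited by 124 reads. No paired analysis was possible because there is 1 group.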
